A study of Mus musculus with 4 samples.

Results

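Angiopoietins are secreted ligands of Tie2, a receptor tyrosine kinase best known from endothelial cells, and angiopoietin-like proteins share their coiled-coil and fibrinogen-like build without being Tie2 ligands. Angpt1, Angpt2, Angpt4, Angptl1, Angptl2, Angptl4, Angptl6 and Angptl7 were followed here in mouse vascular smooth muscle cells. They were chosen by name, with streptozotocin differences of these data already known, and each was found through the RefSeq transcript in its probe set's identifier. All 8 had 1 probe set, and they are 8 of 909 named genes on an array of 1246 probe sets. None was removed by a filter on low values, because none was applied.

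The 4 arrays measured wild-type cells that had been turned towards a bone-like state by osteogenic medium, which both arms received. In 1 arm the cells of 2 arrays also had 0.4 mM streptozotocin, a glucosamine-linked nitrosourea toxic to pancreatic beta cells, and in the other arm 2 control arrays had none. Each arm held 1 array of cells named WTA (replicate 2) and 1 of cells named WT2 (replicate 1), called cultures below. Whether WTA and WT2 came from separate animals, the animals' age and how many were used are not stated in the labels. P-values therefore measure only the spread between these arrays and cannot be read as spread between animals. Each treatment had 1 array per culture, so no array repeats another. The spread behind a streptozotocin p-value thus includes the culture difference. That behind a culture p-value comes from how unlike the streptozotocin differences of the 2 cultures were. All 4 titles carry the mark 3w, and whether it stands for a duration or an age they do not say. The design text asks how genes of sugar chains respond to streptozotocin during calcification.

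In the artery, Angpt1 made by mural cells activates Tie2 on the endothelium and keeps it quiet, whereas Angpt2 competes with it in a way that depends on context. Angpt4 is a further Tie2 agonist. Among the angiopoietin-like proteins, Angptl4 inhibits lipoprotein lipase, and Angptl2 is a pro-inflammatory ligand of integrins.

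Array values are log2 of the probe set's RMA intensity, so a difference of 1 means a doubling, and levels of different probe sets cannot be set against each other. The 4 array medians lay between 5.83 and 5.87 and their lower quartiles between 4.39 and 4.40, close to the zone where background makes up much of a value. Across all probe sets the WT2 control array stood furthest off, with correlations of 0.977 and 0.982 to the WTA arrays, against 0.985 to 0.997 for every pair of arrays without it. Differences within WTA use neither WT2 array and so do not rest on it. Of smooth muscle markers 0 of 6 and of osteogenic markers 0 of 6 were among the named probe sets, so the labelled cell type could not be checked from its own genes. Of fibroblast and matrix markers, 5 of 5 were measured, with medians of 11.30 and 12.05 on the streptozotocin arrays of WTA and WT2 and of 11.64 and 12.54 on the control arrays. For leukocyte and macrophage markers, 6 of 12 were measured, and their medians stayed between 4.59 and 4.76.

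Promoter sequence was at hand for 5 of the 8 genes, from RefSeq (GRCm38.p6), as 250 bases before and 50 bases after a gene start. The genes shown are Angpt4 and Angptl1, which had the widest differences in opposite directions in both cultures, and Angptl2, which was higher with streptozotocin in both. Capitals mark a TATA box (TATAAA), a Runx site (TGTGGT), the core of a cAMP response element (TGACGT) or an AP-1 site (TGANTCA), each searched on both strands.
Angpt4, chr2:151910957-151911256, plus strand: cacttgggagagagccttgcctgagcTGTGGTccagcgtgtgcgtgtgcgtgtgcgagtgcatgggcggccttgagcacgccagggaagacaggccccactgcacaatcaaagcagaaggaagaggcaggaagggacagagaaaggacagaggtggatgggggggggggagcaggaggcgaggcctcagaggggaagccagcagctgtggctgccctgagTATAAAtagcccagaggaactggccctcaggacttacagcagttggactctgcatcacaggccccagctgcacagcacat
Angptl1, chr1:156838773-156839072, plus strand: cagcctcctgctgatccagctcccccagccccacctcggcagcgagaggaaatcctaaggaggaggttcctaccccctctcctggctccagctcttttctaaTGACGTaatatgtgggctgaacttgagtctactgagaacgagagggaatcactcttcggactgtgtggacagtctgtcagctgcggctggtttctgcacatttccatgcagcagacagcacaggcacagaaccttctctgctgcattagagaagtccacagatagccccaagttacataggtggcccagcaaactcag
Angptl2, chr2:33215711-33216010, plus strand: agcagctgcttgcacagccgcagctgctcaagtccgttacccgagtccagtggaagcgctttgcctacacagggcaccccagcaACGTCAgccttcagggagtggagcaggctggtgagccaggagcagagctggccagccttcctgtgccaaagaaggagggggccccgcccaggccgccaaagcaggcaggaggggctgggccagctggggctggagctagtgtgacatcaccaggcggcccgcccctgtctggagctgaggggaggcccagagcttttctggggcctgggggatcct

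The Angpt4 window held a TATA box at position -30 from the gene start and a Runx site at position -224. Of 32851 mouse promoter windows of 300 bases, 13.6% held a TATA box and 16.8% a Runx site. Runx2, a factor of this family, is the gene whose knockout the design text names. The core of a cAMP response element stood at position -148 in Angptl1 and, on the other strand, with its first base at -166 in Angptl2, and 7.51% of all windows held one. These are matching letters in 2 genes whose streptozotocin differences had opposite signs. No AP-1 site was found in the 5 windows, Angptl6 and Angptl7 included, and neither was a CArG box, the element that serum response factor reads in smooth muscle genes. Such matches occur in 7.81% of windows for the AP-1 site and 1.63% for the CArG box. E-boxes (CANNTG) were found in all 5, as in 72.3% of all windows, and they overlap no capitals shown.

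**Figure D1:**
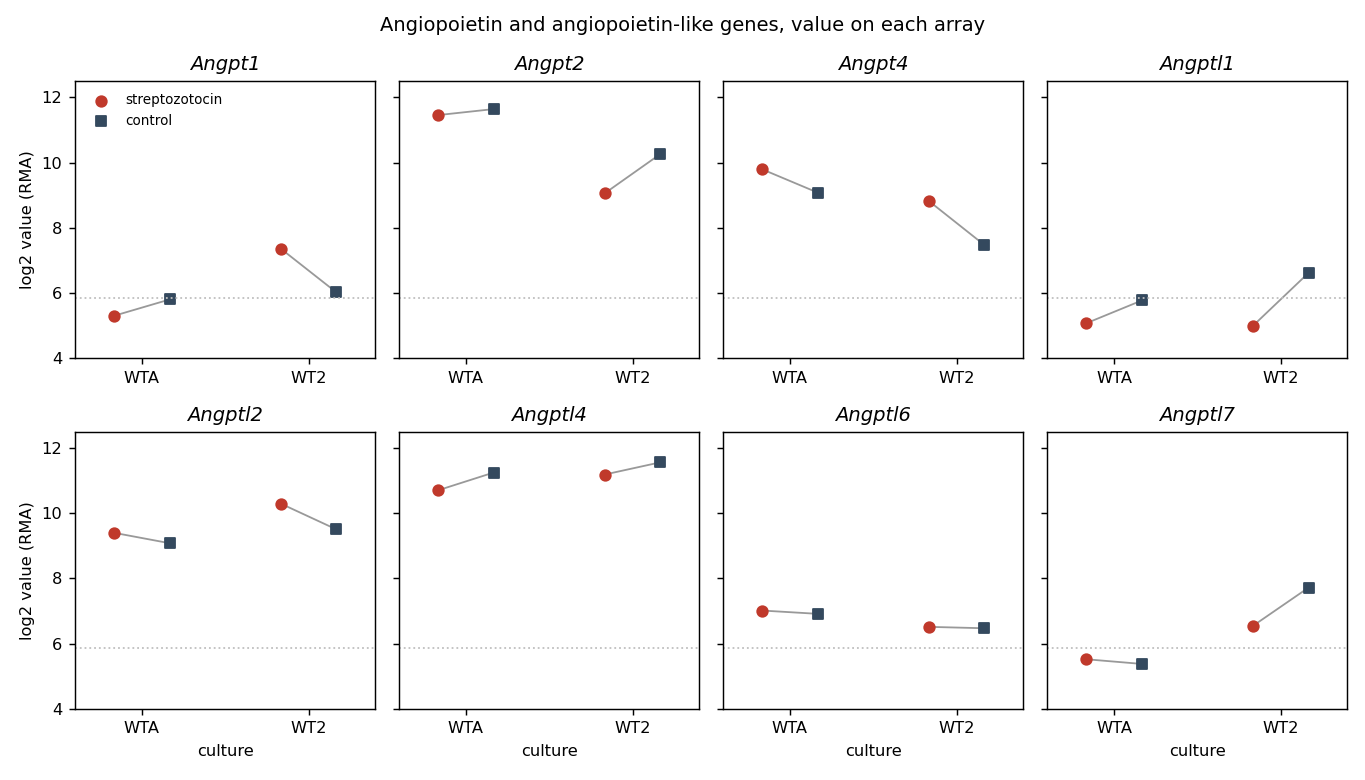
Log2 value of each gene on each array, with streptozotocin (circles) left of control (squares) within each culture and a line joining the 2 arrays of a culture. The dotted line is the median of all probe sets' means, 5.86. Angpt4 and Angptl2 stood higher with streptozotocin in both cultures and Angpt2, Angptl1 and Angptl4 lower, while Angpt1 and Angptl7 went opposite ways in WTA and WT2; heights of different genes cannot be compared.

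Among the Tie2 ligands, Angpt4 and Angpt2 had streptozotocin differences of opposite sign in both cultures. That of Angpt2 in WTA was small, -0.18, beside an SD of 0.22 over all probe sets. Angpt4 read 9.79 in WTA and 8.82 in WT2 with streptozotocin, against 9.08 in WTA and 7.47 in WT2 control cells. Within each culture the treated array was the higher one, but treated WT2 lay below untreated WTA, so the arms overlapped. The difference was 0.72 in WTA and 1.35 in WT2, which are sizes of 1.64-fold and 2.55-fold. Over both cultures Angpt4 averaged 9.31 ± 0.69 with streptozotocin and 8.27 ± 1.14 without it (SD, n = 2 each). Of 1246 probe sets, itself included, 5 were at least as far up in WTA and 18 in WT2. Such ranks only describe the genes, which were chosen with these differences known.

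Angpt2 read 11.46 in WTA and 9.06 in WT2 with streptozotocin, against 11.64 in WTA and 10.26 in WT2 control cells. The 2 WTA arrays were close to each other and high, and the treated WT2 array was the lowest of the 4. Its difference was -0.18 in WTA, a size passed or matched by 196 probe sets on the lower side, and -1.20 in WT2, matched by 6. The mean was 10.26 ± 1.69 with streptozotocin and 10.95 ± 0.97 in untreated cells (SD, n = 2 each), so the arms differed by less than the spread within either. That spread includes the culture difference, since each arm held 1 array of each culture.

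The Angpt4 difference minus the Angpt2 difference was 0.90 in WTA and 2.56 in WT2 on the log2 scale, relative shifts of 1.87-fold and 5.88-fold. In WT2 both genes made up the shift in near-equal parts, and in WTA most of it was that of Angpt4. No test was run on it, since the opposite signs were among the reasons for choosing the genes and each arm of a culture is 1 array.

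Angpt1, the mural cell agonist of Tie2, did not go 1 way. It read 5.30 in WTA and 7.36 in WT2 with streptozotocin, against 5.80 in WTA and 6.02 in WT2 control cells. The treated arrays were thus the lowest and the highest of the 4, with the controls between them. Both WTA values lay below the array median, where background makes up more of a value. The difference was -0.50 in WTA and 1.34 in WT2, and the means were 6.33 ± 1.46 with streptozotocin and 5.91 ± 0.15 in controls (SD, n = 2 each). In WT2 the Angpt1 and Angpt4 differences were nearly equal (1.34 and 1.35), whereas in WTA they stood 1.22 apart. Its identifier ends in s, which can mean that its probes match several transcripts, as do those of Angptl1 and Angptl2.

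Angptl1, which in cultured endothelial cells is known as an inhibitor of vessel growth, was lower with streptozotocin in both cultures. It read 5.07 in WTA and 4.99 in WT2 with streptozotocin, against 5.77 in WTA and 6.62 in WT2 control cells. Both treated arrays lay below both controls and close to each other, so that the spread was among the controls (5.03 ± 0.06 with streptozotocin and 6.19 ± 0.60 without, SD, n = 2 each). The difference was -0.70 in WTA and -1.62 in WT2, or 1.62-fold and 3.08-fold lower. In WT2, 3 probe sets, Angptl1 among them, were at least as far down, again a description only. Its mean exceeded that of 47.4% of probe sets, and in this dim range background compresses differences.

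Angptl4, the lipoprotein lipase inhibitor induced by fasting and by lack of oxygen, was the other gene whose arms did not overlap. With streptozotocin it read 10.70 in WTA and 11.19 in WT2, against 11.25 in WTA and 11.56 in WT2 control cells. Both differences were on the lower side and of like size, -0.54 in WTA and -0.37 in WT2, though under 1.5-fold. Its mean exceeded that of 95.3% of probe sets, which puts it far from background. Angptl1 and Angptl4 were 2 of 8 genes with both treated arrays below both controls, which was so for 13.8% of all probe sets, while 0 of 8 had both above, as 10.8% of all had. Non-overlap in either direction held for 24.6% of the array.

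Angptl2 read 9.40 in WTA and 10.29 in WT2 with streptozotocin, against 9.08 in WTA and 9.50 in WT2 control cells. Each treated array lay above its own control, by 0.32 in WTA and 0.79 in WT2, but treated WTA lay under untreated WT2.

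Angptl6, known from mice as a circulating factor that counters obesity, had the smallest differences. It read 7.01 in WTA and 6.51 in WT2 with streptozotocin, against 6.91 in WTA and 6.47 in WT2 control cells. The differences of 0.10 and 0.04 were smaller than the gap between the cultures, and the sign in WT2 turned after quantile normalization (-0.0845).

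Angptl7, a secreted protein best known from the cornea and the eye's outflow tissue, differed within WT2 alone by more than 1.5-fold. It read 5.52 in WTA and 6.54 in WT2 with streptozotocin, against 5.38 in WTA and 7.72 in WT2 control cells. The 2 WTA arrays were close and low, and the WT2 control was the highest. The difference was 0.14 in WTA and -1.17 in WT2.

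Counted together, 2 of 8 genes differed by at least 1.5-fold in WTA (Angpt4 higher and Angptl1 lower), where 2.33% of all probe sets did so (0.642% higher and 1.69% lower). In WT2 the count was 6 of 8, with Angpt1, Angpt4 and Angptl2 higher and Angpt2, Angptl1 and Angptl7 lower, where 7.30% of all probe sets passed that size (4.82% higher and 2.49% lower). Angpt4 alone was that much higher in both cultures, as were 0.562% of probe sets, and Angptl1 alone that much lower in both, as were 0.482%. Nothing can be read from the gap between these shares, or from the ranks above, since the genes were chosen with the differences known. The medians were -0.04 in WTA and -0.17 in WT2, against 0.00 and -0.02 over all probe sets. The sign was the same in both cultures for 6 of 8 genes and for 51.0% of all probe sets, and opposite for 2 of 8 and for 47.7%. Across the whole array limma called 0 of 1246 probe sets (0%) for streptozotocin at an adjusted p under 0.05, and 25 had an unadjusted p under 0.05. The size in WT2 exceeded that in WTA for every gene but Angptl4 and Angptl6. Taken between the arms, the difference turned for Angpt1, Angpt2, Angptl6 and Angptl7 when 1 array was left out. Without the treated WT2 array it was -0.61 for Angpt1 and 0.50 for Angpt2. Without the WT2 control it was 0.66 for Angptl7 and -0.15 for Angptl6, which also turned without the treated WTA array (-0.18). Such values also hold the culture difference, because 1 arm is then left with 1 culture. They do not show that the direction within a culture is unstable.

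**Figure D2:**
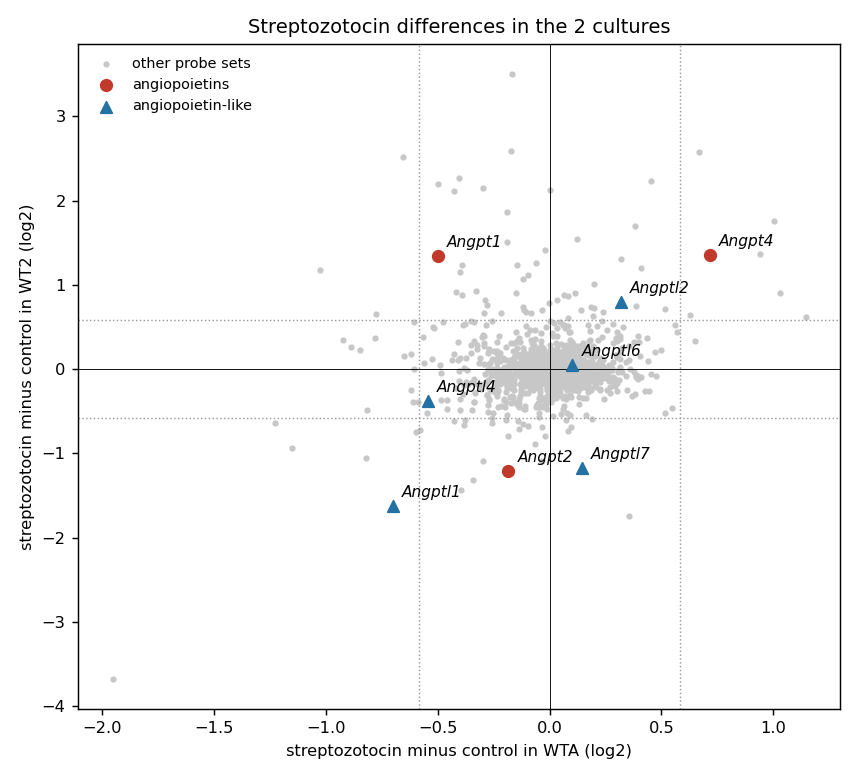
Streptozotocin minus control in WTA (horizontal, log2) and in WT2 (vertical, log2) for 1246 probe sets, with angiopoietins as red circles, angiopoietin-like genes as blue triangles and dotted lines at 1.5-fold. Angpt4 lies past the lines in the upper right and Angptl1 in the lower left; Angpt1 and Angptl7 lie in quadrants of opposite sign.

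The second comparison set WTA against WT2, which asks how far the 2 cell samples differ whatever the treatment, in a fit that also held the treatment. The Tie2 ligands again parted, but not along the same line: Angpt2 and Angpt4 were both higher in WTA, and Angpt1 was lower. Angpt2 averaged 11.55 ± 0.13 in WTA and 9.66 ± 0.85 in WT2 (SD, n = 2 each), a difference of 1.89 (95% interval 1.09 to 2.69, SE 0.28). That is 3.70-fold, and 7 of 1246 probe sets were at least as far up. Angpt4 averaged 9.44 ± 0.51 in WTA and 8.14 ± 0.96 in WT2 (SD, n = 2 each), with a difference of 1.29 (0.75 to 1.83, SE 0.19). Neither passed limma's test after Benjamini-Hochberg adjustment over all probe sets (adjusted p = 0.0812 for Angpt2 and 0.0804 for Angpt4). Over the other settings with all 4 arrays, limma's adjusted p ran from 0.0547 to 0.205 for Angpt2 and from 0.0495 (array medians subtracted) to 0.359 (culture alone) for Angpt4. For Angpt1 the values were 5.55 ± 0.35 in WTA and 6.69 ± 0.95 in WT2 (SD, n = 2 each). Its interval of -2.53 to 0.25 for the difference of -1.14 reached past 0 (limma adjusted p = 0.375).

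Angptl7 had the widest gap of the angiopoietin-like genes. It averaged 5.45 ± 0.10 in WTA and 7.13 ± 0.83 in WT2 (SD, n = 2 each), a difference of -1.68 (-2.69 to -0.67). This missed the threshold too (limma adjusted p = 0.136, and 0.0961 to 0.228 over the other settings with all 4 arrays). Both values in WTA lay below the array median, so the size is less certain than for the brighter genes.

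Angptl2 and Angptl4 differed by -0.66 (-1.10 to -0.22) and -0.40 (-0.69 to -0.11), and Angptl6 by 0.47 (0.20 to 0.74). For Angptl6 the arrays of a culture were nearly alike, 6.96 ± 0.07 in WTA and 6.49 ± 0.03 in WT2 (SD, n = 2 each). The SD within a culture, here and for the genes above, holds the streptozotocin difference, since each culture had 1 array of each arm. The small gap of Angptl6 thus stood clear of its streptozotocin differences, and spread between like arrays was not measured. Angptl1 differed by -0.38, with an interval of -1.12 to 0.35, and by 0.43 without the WT2 control array.

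In all, 0 of 8 genes passed this test, while limma called 28 of 1246 probe sets (2.25%), and the 8 adjusted p-values ran from 0.0804 to 0.575. At an unadjusted p under 0.05 there were 6 of 8 and, over the array, 210 of 1246. The cultures did not overlap for 6 of 8 genes, as for 49.0% of all probe sets, 3 being higher (21.3% of all) and 3 lower in WTA (27.7% of all). The exceptions were Angptl1 and Angptl4. In a fit with the culture alone, limma's calls over the array numbered 13 with all 4 arrays, 0 without the treated WTA array (77 at an unadjusted p under 0.05), 0 without the WTA control (111), 18 without the treated WT2 array and 12 without the WT2 control. These p-values compare 2 cell samples and hold no spread between samples of a kind.

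**Figure D3:**
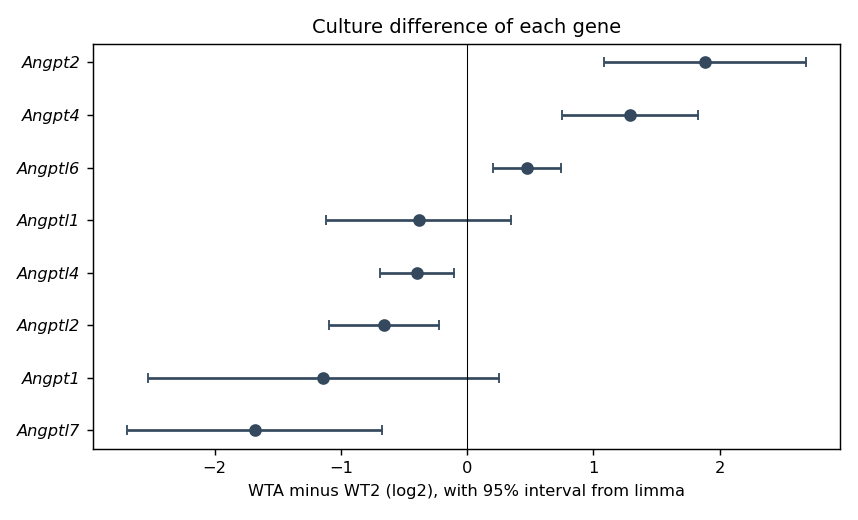
WTA minus WT2 for each gene on the log2 scale (points), with 95% intervals from limma's fit with treatment and culture (bars). Angpt2, Angpt4 and Angptl6 lie right of 0 and Angptl2, Angptl4 and Angptl7 left of it, while the intervals of Angptl1 and Angpt1 cross 0; none passed the adjusted test.

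Endothelial cells are a main source of Angpt2, and 8 of 15 endothelial markers were measured. Their median was 6.29 in WTA and 5.32 in WT2 with streptozotocin, against 6.22 in WTA and 5.14 in WT2 control cells. This gap mixes levels of different probe sets. The median of the markers' own WTA minus WT2 differences was 0.47, beside -0.02 over all probe sets. The markers did not move together. Emcn, Selp, Esm1 and Thbd were higher in WTA by 0.79 to 4.93, and Icam2 (-0.19) and Cd34 were lower. Pecam1 and Sele differed by only 0.15 and 0.05. Esm1 read 9.33 and 8.999 on the WTA arrays against 4.48 and 3.99 on those of WT2, whereas the WTA minus WT2 difference of Cd34 was -1.07. Both passed limma's culture test, in opposite directions (adjusted p = 0.0030 for Esm1 and 0.0445 for Cd34). Pecam1 and Sele lay below the lower quartile on all 4 arrays, between 3.793 and 3.997 and between 3.14 and 3.41. Icam2 lay above it, between 5.54 and 5.88. The markers' part in the Angpt2 and Angpt4 differences was not tested, and in such bulk RNA fewer cells of a type and less RNA per cell cannot be told apart.

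Of the genes these ligands work with, few were measured by name. Tek, which encodes Tie2, and Tie1, its co-receptor, are not analysed here, nor is any other of the 8 genes on the Tie2 pathway list. Sdc4, a heparan sulfate proteoglycan of the cell surface and the only measured gene of 11 on the list of partners and targets, was higher with streptozotocin by 0.36 in WTA and 0.27 in WT2. It passed neither test.

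The VEGF and PDGF families, which act on the same vessel cells, had 10 of 16 genes measured. None was called for streptozotocin or for culture. Their median streptozotocin difference was -0.14 in WTA and -0.21 in WT2, beside 0.00 and -0.02 over all probe sets, and 6 of the 10 were lower and 3 higher in both cultures, where the signs matched for 51.0% of all probe sets. In WT2, 2 were at least 1.5-fold lower, Pdgfd and Pdgfc (named after its value was seen), as were 2.49% of all probe sets, and in WTA 0 were, against 1.69% of all. Pdgfd, a ligand of the PDGF beta receptor, read 6.96 in WTA and 4.997 in WT2 with streptozotocin, against 7.14 in WTA and 5.80 in WT2 control cells. Its culture difference of 1.65 (limma adjusted p = 0.0501) was the widest of this list. Pdgfra, a PDGF receptor abundant in mesenchymal cells, differed by -0.35 in WTA and -0.49 in WT2 with streptozotocin, and by -0.82 between the cultures (adjusted p = 0.0631).

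Pdgfd was also the gene whose pattern came nearest to that of Angpt2. Likeness was the Euclidean distance between log2 values over the 4 arrays, each gene centred on its own mean, among 908 other genes. The distance was 0.37 for Pdgfd, 0.78 for St6gal1, a sialyltransferase, and 1.18 for Emcn, an endothelial sialomucin. For Angpt4, Klra2, a lectin-like receptor with near-identical copies, lay at 0.37 and Thbd, the thrombin cofactor of endothelium, at 0.44. Thbd differed by 0.20 in WTA and 1.01 in WT2 with streptozotocin, and by 1.33 between the cultures, the last close to Angpt4. For Angptl7 they were Clec11a, a growth factor of bone (0.52), Igfbp2, a binding protein of insulin-like growth factors (0.67), and Gcnt1, an O-glycan branching enzyme (0.75). Resting on 4 arrays, the distances are a description and carry no test.

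**Figure D4:**
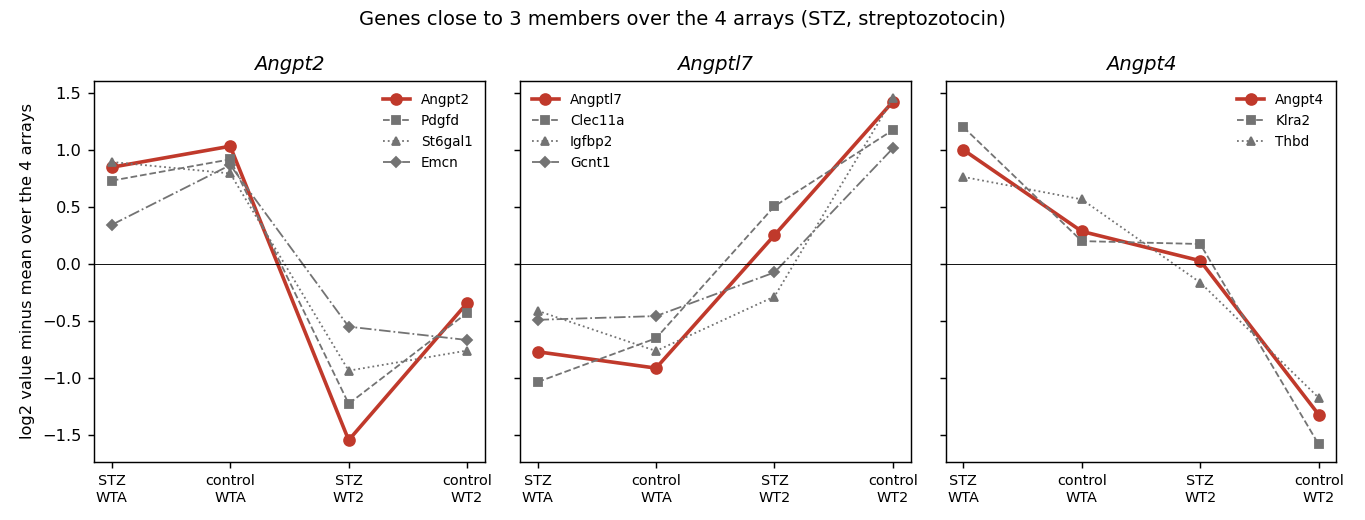
Log2 values minus the gene's own mean on the 4 arrays (STZ, streptozotocin) for Angpt2, Angptl7 and Angpt4 (red) and genes near to each (grey), 3 for Angpt2 and Angptl7 and 2 for Angpt4. Pdgfd follows Angpt2 at a distance of 0.37 and Klra2 follows Angpt4 at 0.37; lines join arrays for legibility and stand for no order.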

How the data were processed

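RNA extracted with Trizol was turned into biotin-labelled cRNA by an Affymetrix procedure, per the labels' protocols. The authors deposited log2 values from RMA, a tool that the submitters' processing notes name without version or settings. Array batches and scan dates were not used here. RMA by default equalises the arrays' distributions, so a shift of most genes in one direction would not be seen. Of 1246 probe sets, 963 were named through RefSeq transcripts (GRCm38.p6, names only) and 283 were not.

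The members and gene lists were chosen with earlier results of these data known. Text genes were all members, up to 2 genes per list with the largest difference in each comparison, and the 3 nearest genes to the 3 members that varied most; others are marked, and 2 genes that these rules name are not reported here. Markers beside a result were from fixed lists.

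Fits used limma 3.58.1 in R 4.3.3 over all probe sets (lmFit, eBayes, Benjamini-Hochberg, threshold 0.05), and were run on simulated data with known changes. The simulated streptozotocin changes came without a culture difference. They therefore do not show what the streptozotocin fit could recover from these arrays. The streptozotocin fit had no block. Replicate numbers pair the arrays, since the labels give the same cell sample name; deviations of paired arrays correlated at 0.600. The culture fit held treatment and left 1 residual degree of freedom. Within a culture no test was possible with 1 array per arm. The number of arrays limits the precision. Alternatives were the block, each array left out, other scalings, an intensity trend, another threshold and the removal of dim probe sets. One listed alternative, averaging a member's probe sets, did not apply, as each had 1.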

Additional observations from a re-analysis of the deposited data

Results flagged for a closer look

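For 2 of 8 genes the streptozotocin difference had opposite signs in the cultures. Angpt1 differed by -0.50 in WTA and 1.34 in WT2, and Angptl7 by 0.14 in WTA and -1.17 in WT2. In WTA, 30 probe sets were at least as far down as Angpt1 and 215 at least as far up as Angptl7, each itself included. Both WTA values of Angpt1, and both of Angptl7, lay below the array median, where background makes up more of a value. Opposite signs occurred for 47.7% of all probe sets. With 1 array per arm in each culture, the difference between the cultures was not tested.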

How the results depend on the processing

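For streptozotocin, limma called 0 probe sets in the fit as reported and under all 10 alternatives, among them the replicate block (0 called, smallest adjusted p = 0.536, 80 at an unadjusted p under 0.05 against 25 without it), so the pairing changed no call. For WTA against WT2 the 28 calls became 13 with the culture alone, 8 after quantile normalization, 2 of the probe sets above the median level and 64 at a threshold of 0.10. In the fit with the culture alone, to be set against its own 13, the calls ran from 0 to 18 with 1 array left out (0 without either WTA array, with 77 at an unadjusted p under 0.05 without the treated one and 111 without the control, 12 without the WT2 control, 18 without the treated WT2 array). The causes were not tested. The count of 8 member differences of at least 1.5-fold within the cultures stayed at 8 under both other scalings. Taken between the arms, the streptozotocin difference ranged with 1 array left out from -0.61 to 1.45 for Angpt1 and from -1.89 to 0.50 for Angpt2. Both turned without the treated WT2 array. For Angptl6 it ranged from -0.18 to 0.32 and turned without the WT2 control, at -0.15, or the treated WTA array. For Angptl7 it ranged from -1.69 to 0.66 and turned without the WT2 control. The difference kept its direction for Angpt4 (0.23 to 1.84), Angptl1 (-1.59 to -0.74), Angptl2 (0.11 to 1.00) and Angptl4 (-0.70 to -0.22). Such values also hold the culture difference, because leaving out 1 array unbalances the cultures. The culture difference turned for Angptl1 without the WT2 control (-1.20 to 0.43), and within WT2 the Angptl6 difference was -0.0845 after quantile normalization. In the fit with the culture alone and 1 array left out, limma's adjusted p of the culture difference ran from 0.0364 (without the WT2 control) to 0.789 for Angpt2, beside 0.205 with all arrays, from 0.11 to 0.815 for Angpt4, beside 0.359, and from 0.0286 (without the treated WT2 array) to 0.789 for Angptl7, beside 0.228. There the culture with 1 array left is assumed to vary as the other does, and the 2 WTA arrays are nearly alike (correlation 0.997), so both lowest values say little. Dim probe sets such as Angptl1 hold more background, which limits what a difference can show.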
